A study of Mus musculus with 9 samples.

Results

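The expression of 8 genes that anchor epithelial cells to their basement membrane was followed over 9 mouse arrays. The genes are Lama3, Lamb3, Lama5, Col17a1, Itga6, Itgb4, Itga3 and Dst, chosen by name as hemidesmosome parts, laminin chains and laminin-binding integrins, and all 8 of them were found among the 20422 genes measured. Cell populations of 3 kinds were compared, with 3 arrays each. D-ME-iPSC and D-TF-iPSC are differentiated induced pluripotent stem cells (iPSCs) made from mammary epithelial (ME) cells and from tail-tip fibroblasts. They were reprogrammed with retroviral Oct4, Sox2, Klf4 and c-Myc and a lentiviral EGFP reporter. Differentiation in serum-containing mammary medium began with 3 days on a coat of Matrigel, a basement membrane extract that itself is rich in laminin. After reseeding, 6 days followed with Matrigel in the medium only, where it could be left out after the first day. ME is the control, freshly isolated mammary epithelial cells that were not reprogrammed. The fibroblasts came from 2-month-old mice and the reprogrammed mammary cells from virgin females of 2 and 6 months, whereas the age of the mice behind the fresh ME arrays, the mouse strain and the iPSC clones used were not stated. For its transplants the study describes donor cells of all 3 kinds with a β-galactosidase gene, and whether the cells on the arrays carried it was not stated. Each value is a log2 level on the RMA scale, so a difference of 1 is a 2-fold difference. A gene is the mean of its exon-level probe sets, which number 25 to 107 for these 8 genes and 438 in all.

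One array stood apart from its label and enters every comparison with ME. Over all genes, the array labelled ME replicate 1 correlated at Pearson's r = 0.991 to 0.993 with those of D-ME-iPSC, against 0.92 and 0.943 with ME replicates 2 and 3, which reached 0.973 with each other. It kept its label, and results that use ME are given with it and without it. The upper quartile of the probe sets was 9.18 to 9.22 in D-ME-iPSC, 9.12 to 9.17 in D-TF-iPSC, 9.28 in ME replicate 1, and 8.97 and 9.05 in ME replicates 2 and 3. The cell type labels were set against marker genes. The mean level of 6 epithelial markers (Epcam, Cdh1, Krt8, Krt18, Esrp1, Cldn4) was 11.32 to 11.36 in D-ME-iPSC, 8.64 to 9.01 in D-TF-iPSC and 11.06 to 11.37 in ME. That of 7 fibroblast markers was 9.15 to 9.25 in D-ME-iPSC, 10.47 to 10.55 in D-TF-iPSC and 8.41 to 9.16 in ME. In bulk RNA, fewer epithelial cells and less RNA per epithelial cell cannot be told apart, and the part of cell composition in the results below was not tested.

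Hemidesmosomes rivet the basal face of an epithelial cell to the basement membrane. Their core is the α6β4 integrin, made of the products of Itga6 and Itgb4, which together with the transmembrane collagen XVII (Col17a1) reaches out to the basement membrane and inside the cell is tied to keratin filaments by plectin and by the epithelial form of dystonin (Dst, also known as BPAG1). The main outer ligand is laminin-332, a trimer that holds the α3 and β3 chains encoded by Lama3 and Lamb3. Lama5 encodes the α5 chain, which belongs to other laminins of epithelial basement membranes, and Itga3 the α3 chain of the α3β1 integrin, a laminin receptor that sits outside hemidesmosomes. In the mammary gland the basal myoepithelial layer lies on this membrane.

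RefSeq promoter windows on GRCm38.p6, 300 bases each around a start site, were matched to 5 of the 8 genes by symbol. Shown are windows of Lamb3, Col17a1 and Itga3, a ligand chain, an anchor and a receptor that moved the same way in the main comparison. Both windows of Dst, which was not called there, are shown as well. Capitals mark matches, on either strand, to AP-1 (TGANTCA), E-box (CANNTG) and TATA box (TATAAA) letters, each sequence running 5′ to 3′ on the strand of its gene.
Lamb3, chr1:193301744-193302043, plus strand: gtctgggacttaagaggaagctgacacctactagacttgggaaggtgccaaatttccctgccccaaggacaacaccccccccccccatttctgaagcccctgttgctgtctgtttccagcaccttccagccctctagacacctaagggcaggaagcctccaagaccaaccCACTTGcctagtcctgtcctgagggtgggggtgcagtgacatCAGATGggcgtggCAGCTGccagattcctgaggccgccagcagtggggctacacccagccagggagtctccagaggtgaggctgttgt
Col17a1, chr19:47691993-47692292, minus strand: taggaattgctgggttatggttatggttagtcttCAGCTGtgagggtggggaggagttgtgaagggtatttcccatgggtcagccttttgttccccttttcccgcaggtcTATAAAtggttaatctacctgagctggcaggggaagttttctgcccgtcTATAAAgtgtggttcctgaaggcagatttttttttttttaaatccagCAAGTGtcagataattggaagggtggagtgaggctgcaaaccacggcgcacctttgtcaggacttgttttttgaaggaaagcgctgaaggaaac
Itga3, chr11:95076665-95076964, minus strand: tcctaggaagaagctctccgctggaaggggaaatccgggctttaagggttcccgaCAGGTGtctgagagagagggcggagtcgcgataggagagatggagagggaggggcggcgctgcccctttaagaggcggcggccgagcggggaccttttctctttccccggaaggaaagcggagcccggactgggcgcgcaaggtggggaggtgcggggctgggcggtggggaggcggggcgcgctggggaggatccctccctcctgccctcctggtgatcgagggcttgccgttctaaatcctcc
Dst, first start site, chr1:34011345-34011644, plus strand: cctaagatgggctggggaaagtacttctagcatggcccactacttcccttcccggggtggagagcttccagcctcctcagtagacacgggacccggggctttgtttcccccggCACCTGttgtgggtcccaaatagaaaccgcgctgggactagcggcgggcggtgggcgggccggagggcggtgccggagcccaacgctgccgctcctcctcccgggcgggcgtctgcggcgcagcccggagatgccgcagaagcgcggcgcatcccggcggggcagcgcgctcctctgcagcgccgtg
Dst, second start site, chr1:34160010-34160309, plus strand: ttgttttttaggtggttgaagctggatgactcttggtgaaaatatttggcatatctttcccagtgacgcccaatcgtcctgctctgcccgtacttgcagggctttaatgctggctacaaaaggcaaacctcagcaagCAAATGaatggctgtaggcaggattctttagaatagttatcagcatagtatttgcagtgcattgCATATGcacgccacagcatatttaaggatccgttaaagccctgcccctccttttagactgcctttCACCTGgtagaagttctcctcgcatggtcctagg
Among all 32851 promoter windows of this length, 72.3% held an E-box, 13.6% a TATA box, 7.81% an AP-1 match and 35.7% a GC box (GGGCGG, either strand, not capitalised). The Lamb3 window shown held 3 E-boxes and no GC box, and a second one, not shown, held 2 E-boxes and no GC box. The Col17a1 window held 2 TATA boxes, and no other window of the 8 found for these genes held one. The Itga3 window held 3 GC boxes and 1 E-box, whereas an AP-1 match occurred only in a second Itga3 window that is not shown. The Dst windows differed from each other, with 4 GC boxes and 1 E-box at the first start site, and 3 E-boxes and no GC box at the second. Letter matches are descriptions of the windows and were not tested against expression.

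The first comparison asked how the origin of the iPSCs is reflected in anchoring genes after the same differentiation. Of the 8 genes, 7 were higher in the D-ME-iPSC than in the D-TF-iPSC arrays, by 1.51-fold (Lama5) to 4.54-fold (Itga3), and Dst was not called. By limma with Benjamini-Hochberg adjustment, 7 of 8 were called higher, where 6.83% of all genes were called higher and 13.3% were called either way. The median log2 fold change of the 8 genes was 1.36, against -0.01 over all genes. In each of these 7 genes all 3 D-ME-iPSC arrays lay above all 3 D-TF-iPSC arrays, as did 25.2% of all genes. Lama3, Lamb3 and Itga6 also stand in a list that the study drew up from these same arrays, so their direction is not independent of that choice.

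**Figure D1:**
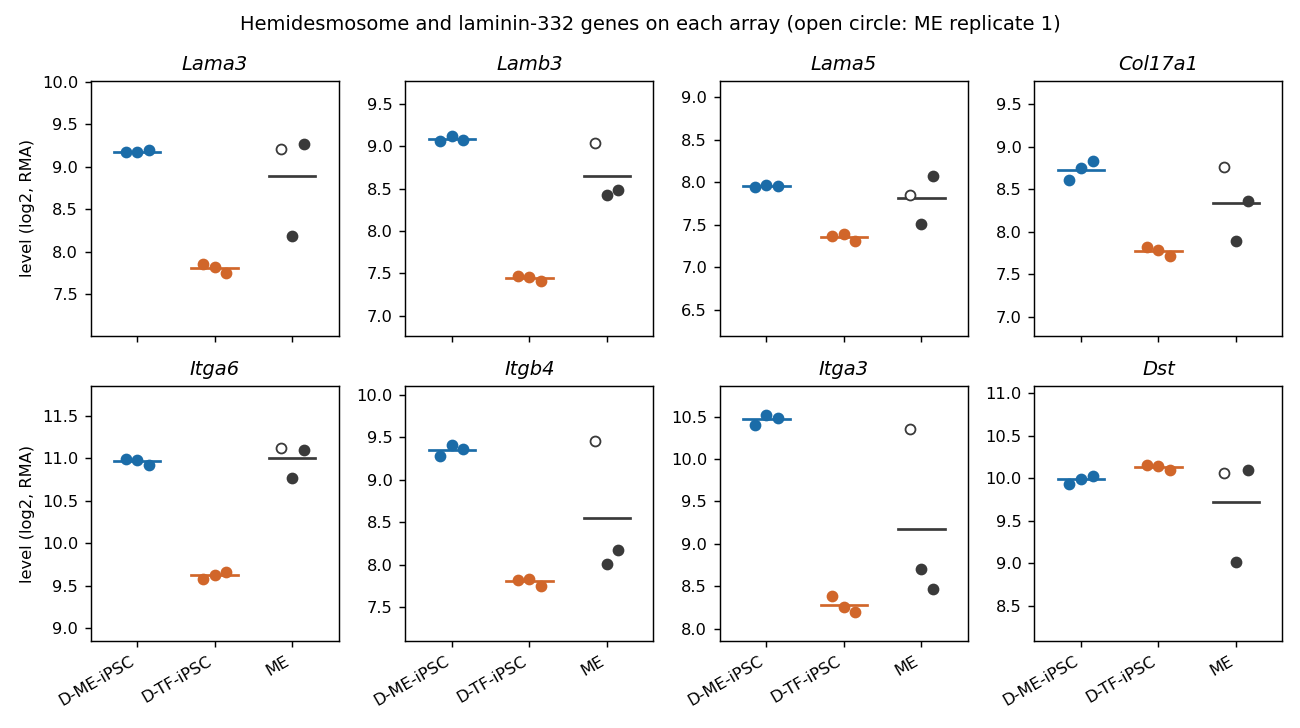
Log2 level (RMA, vertical axis) of the 8 genes in D-ME-iPSC, D-TF-iPSC and ME, 1 circle per array, a bar at the mean of 3 arrays, and an open circle for ME replicate 1. All panels span the same number of log2 units. In every panel but that of Dst the D-ME-iPSC arrays lie above the D-TF-iPSC arrays, while the ME arrays spread widely, most of all for Itga3 (8.46 to 10.36).

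The laminin chains are the ligands. Lama3 was measured at 9.17, 9.17 and 9.19 in D-ME-iPSC, at 7.86, 7.82 and 7.75 in D-TF-iPSC, and at 9.21, 8.18 and 9.27 in ME. Its log2 fold change was 1.37 in D-ME-iPSC over D-TF-iPSC, the direction of every fold given between the iPSC groups (standard error 0.25, 2.58-fold, adjusted p = 0.0064 by limma). All D-ME-iPSC arrays and 2 of the 3 ME arrays thus lay close together near 9.2, and ME replicate 2 lay nearer to the D-TF-iPSC arrays. Lamb3, whose chain pairs with that of Lama3 in laminin-332, had 9.06, 9.12 and 9.08 in D-ME-iPSC, against 7.47, 7.45 and 7.42 in D-TF-iPSC, and 9.04, 8.42 and 8.48 in ME. It was 3.11-fold higher in the D-ME-iPSC than in the D-TF-iPSC arrays (log2 1.64, standard error 0.15, adjusted p = 0.00019), and here ME replicates 2 and 3 took a place between the iPSC groups. Lama5 levels were 7.94, 7.97 and 7.96 in D-ME-iPSC, against 7.37, 7.39 and 7.31 in D-TF-iPSC, and 7.85, 7.51 and 8.07 in ME. The difference between the iPSC groups was the smallest of those called (log2 0.60, standard error 0.14, adjusted p = 0.019). Leaving out any 1 iPSC array ended the Lama5 call, with adjusted p of 0.065 to 0.082 at log2 folds of 0.57 to 0.61.

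Col17a1, the collagenous anchor, was measured at 8.61, 8.76 and 8.83 in D-ME-iPSC, at 7.82, 7.79 and 7.72 in D-TF-iPSC, and at 8.77, 7.89 and 8.36 in ME. It was 1.94-fold higher in the D-ME-iPSC than in the D-TF-iPSC arrays (log2 0.96, standard error 0.19, adjusted p = 0.010). The ME arrays covered almost the whole distance between the iPSC groups. The median of its 54 probe sets, in place of their mean, gave a log2 fold of 0.37 with an adjusted p of 0.22, and without D-ME-iPSC replicate 3 the adjusted p was 0.051.

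Among the integrin receptors, Itga6 had 10.99, 10.98 and 10.92 in D-ME-iPSC, against 9.58, 9.62 and 9.66 in D-TF-iPSC, and 11.12, 10.77 and 11.10 in ME. It was 2.54-fold higher in the D-ME-iPSC than in the D-TF-iPSC arrays (log2 1.34, standard error 0.11, adjusted p = 0.00010), and D-TF-iPSC alone was low. With only the brightest probe set the log2 fold was 0.39 (adjusted p = 0.10). Itgb4, the partner of Itga6 in hemidesmosomes, had 9.27, 9.41 and 9.36 in D-ME-iPSC, against 7.82, 7.84 and 7.75 in D-TF-iPSC, and 9.46, 8.01 and 8.18 in ME. It was 2.93-fold higher in the D-ME-iPSC than in the D-TF-iPSC arrays (log2 1.55, standard error 0.32, adjusted p = 0.011). Unlike those of Itga6, the Itgb4 levels of ME replicates 2 and 3 lay close to D-TF-iPSC. Itga3 was measured at 10.40, 10.51 and 10.49 in D-ME-iPSC, at 8.39, 8.25 and 8.20 in D-TF-iPSC, and at 10.36, 8.71 and 8.46 in ME. Of the 8 genes it had the largest difference between the iPSC groups (log2 2.18, standard error 0.40, 4.54-fold, adjusted p = 0.0071), and again ME replicates 2 and 3 lay near D-TF-iPSC.

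Dst, the linker to keratin filaments, was measured at 9.94, 9.99 and 10.03 in D-ME-iPSC, at 10.15, 10.14 and 10.10 in D-TF-iPSC, and at 10.07, 9.02 and 10.10 in ME. Its log2 fold change between the iPSC groups was -0.14 (95% interval -0.70 to 0.42, adjusted p = 0.84). The D-ME-iPSC arrays all lay below the D-TF-iPSC arrays, as happened for 23.2% of all genes, but by little, and ME replicate 2 lay far below both. Without ME replicate 1 the folds between the iPSC groups stayed as they were and the standard errors shrank for all 8 genes. The same 7 genes were then called, at adjusted p between 3.8e-07 (Itga3) and 0.0064 (Lama5), where 15.5% of all genes were called higher.

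**Figure D2:**
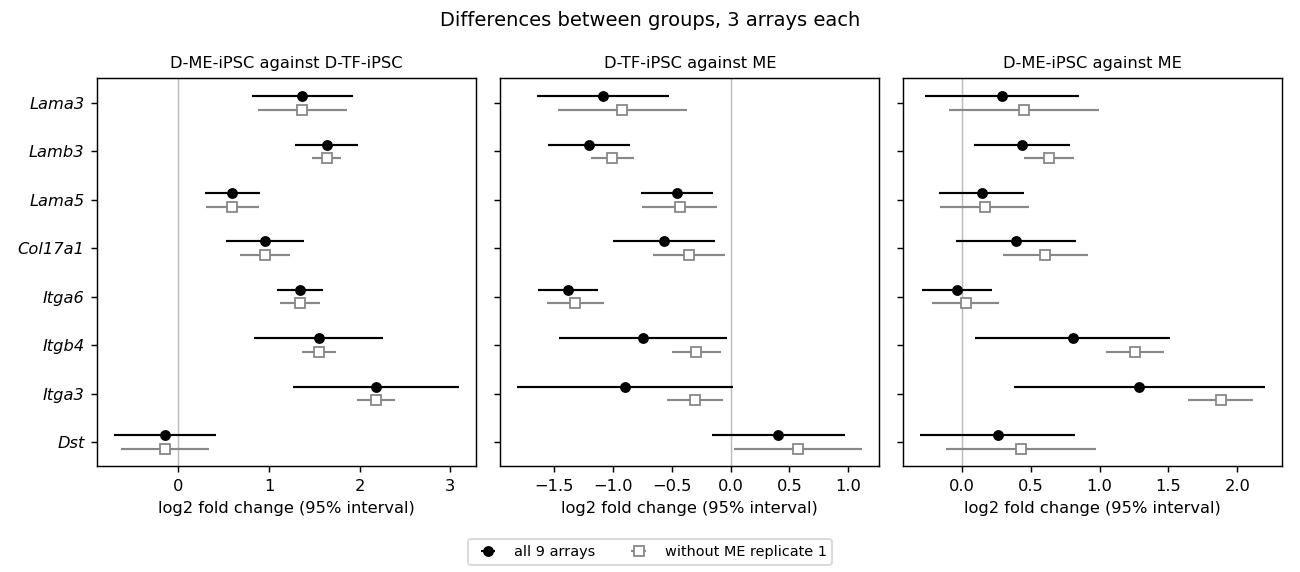
Log2 fold change (horizontal axis) of each of the 8 genes in the 3 comparisons, with 95% intervals from limma, over all 9 arrays (filled circles) and without ME replicate 1 (open squares). Itga3 and Itgb4 show the widest intervals with all 9 arrays and the narrowing of both without ME replicate 1, most plainly for D-ME-iPSC against ME.

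The second comparison set D-TF-iPSC against the fresh control cells. It shares the D-TF-iPSC arrays with the first, so both sets of folds move together with those arrays. Itga6, Lamb3 and Lama3 were lower in D-TF-iPSC than in ME, by log2 -1.38 (standard error 0.11, adjusted p = 8.3e-05), -1.20 (0.15, 0.00098) and -1.08 (0.25, 0.017). These 3 of 8 were called lower by limma, where 7.5% of all genes were called lower and 16.3% either way. Lama5 (-0.45, adjusted p = 0.053), Col17a1 (-0.57, 0.079), Itgb4 (-0.75, 0.15) and Itga3 (-0.89, 0.18) had negative folds that were not called, and Dst had a fold of 0.40 (0.33). The D-TF-iPSC arrays nevertheless lay below all ME arrays for every one of the 7 genes other than Dst, as was the case for 14.4% of all genes, and narrowly above them for Dst, as for 14.9%.

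Without ME replicate 1, 6 of the 8 genes were called lower in D-TF-iPSC than in ME, where 16.4% of all genes were called lower and 22.8% higher. Itga6 then had a log2 fold of -1.31, Lamb3 of -1.002, Lama3 of -0.92, Lama5 of -0.43, Itga3 of -0.30 and Itgb4 of -0.29, with adjusted p of 1.2e-05, 1.1e-05, 0.014, 0.038, 0.045 and 0.033. Col17a1 (-0.35, adjusted p = 0.068) and Dst (0.57, 0.089) were not called. For Itgb4 and Itga3 the loss of 1 array thus shrank the fold more than 2-fold on the log2 scale while taking it past the threshold, with standard errors of 0.09 and 0.10 in place of 0.32 and 0.40. The Lama3 call was lost without ME replicate 3 (log2 -0.89, adjusted p = 0.057) or without any 1 of the D-TF-iPSC arrays (adjusted p 0.056 to 0.067).

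The third comparison, D-ME-iPSC against ME, asked how far the differentiated mammary-derived cells resembled the fresh ones. No member was called, and neither was any other gene, so that 0% of the 20422 genes passed limma's adjusted p, although 3857 of them (18.9%) had an unadjusted p under 0.05. The methods' t-test with Benjamini-Hochberg adjustment called no member either. The log2 folds of Lama3, Lama5, Itga6 and Dst were 0.29, 0.14, -0.034 and 0.26, with 95% intervals of -0.27 to 0.85, -0.16 to 0.45, -0.29 to 0.22 and -0.30 to 0.82. Those of Itga3, Itgb4, Lamb3 and Col17a1 were larger, at 1.29 (95% interval 0.38 to 2.20), 0.80 (0.09 to 1.51), 0.44 (0.09 to 0.79) and 0.39 (-0.04 to 0.83), each with an adjusted p of 0.25 to 0.29.

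Without ME replicate 1 these last 4 genes were called higher in D-ME-iPSC than in ME, where 23.6% of all genes were called higher and 38.7% either way. Itga3 was 3.68-fold higher (log2 1.88, standard error 0.10, adjusted p = 2.8e-06) and Itgb4 2.39-fold higher (log2 1.26, standard error 0.09, adjusted p = 1.1e-05). Lamb3 (log2 0.63, adjusted p = 0.00025) and Col17a1 (log2 0.61, adjusted p = 0.0063) had smaller differences. Lama3 (0.45, adjusted p = 0.17), Lama5 (0.17, 0.38), Itga6 (0.029, 0.85) and Dst (0.43, 0.19) were not called. Itga6 kept the narrowest interval of the 8 with all 9 arrays, and its 95% interval without ME replicate 1 ran from -0.21 to 0.27.

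The order of the groups therefore differed between genes. For Itga6 the ME and D-ME-iPSC arrays overlapped and D-TF-iPSC was low. For Lamb3 the order was D-ME-iPSC, ME, D-TF-iPSC, with no overlap between any pair of groups, and the D-ME-iPSC arrays lay above all ME arrays for Lamb3 and Itga3 alone of the 8, as for 5.96% of all genes. For Itga3 and Itgb4 the ME arrays fell into a high array, replicate 1, and a low pair, replicates 2 and 3. The levels of Itga6 in that same low pair, at 10.77 and 11.10, were near those of D-ME-iPSC, so its RNA and that of its partner Itgb4 did not follow each other in these fresh cells. Over the 9 arrays, with each gene centred on its own mean, the root mean square difference was 0.31 between Itgb4 and Itga3, 0.48 between Itgb4 and Itga6, and 0.24 between Lamb3 and Itga6. Dst lay at 0.42 (Lama5) to 1.06 (Itga3) from the other genes.

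At the level of single probe sets, 134 of the 438 were called between the iPSC groups, 132 of them higher and 2 lower, where 2.84% of all 212138 probe sets with 1 gene symbol were called higher and 2.48% lower. The 132 were spread over Lama3 (26 of 75), Lamb3 (18 of 25), Lama5 (17 of 82), Col17a1 (13 of 54), Itga6 (17 of 25), Itgb4 (18 of 41), Itga3 (22 of 29) and Dst (1 of 107), and both lower ones belonged to Dst. All 25 probe sets of Itga6 and 28 of the 29 of Itga3 had positive folds. The Itgb4 probe set with the largest fold had 9.97, 9.82 and 9.81 in D-ME-iPSC, against 6.86, 6.59 and 4.56 in D-TF-iPSC, and 9.83, 6.58 and 7.72 in ME (adjusted p = 0.027 between the iPSC groups). One D-TF-iPSC array lay far below the others there, and since such low levels are not shown to be above background, no fold is given. The Col17a1 probe set with the largest fold (3.24, adjusted p = 0.0076) had 11.96, 11.87 and 11.92 in D-ME-iPSC, against 9.08, 8.72 and 8.24 in D-TF-iPSC, and 11.85, 9.49 and 10.59 in ME. The lowest fold of Col17a1 was -1.09 (adjusted p = 0.13), so single probe sets of a gene moved by very different amounts. Between D-TF-iPSC and ME, 58 of the 438 were called, 50 lower and 8 higher, where 3.55% of all probe sets were called lower and 3.82% higher, and all 8 higher ones belonged to Dst. Without ME replicate 1 the count between D-ME-iPSC and ME was 120, of which 108 were higher and 12 lower, where 13.1% and 5.39% of all probe sets were. With all 9 arrays it was 0 by limma, as for every other probe set (28749 of them, 13.6%, had an unadjusted p under 0.05). These counts rest on few arrays and on a spread pooled with that in ME: without any 1 of the iPSC arrays the 134 became 43 to 57.

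Lama3 fell into a dim and a bright stretch of probe sets when these were put in order of their number. The first 37 had mean levels of 6.74, 6.71 and 6.75 in D-ME-iPSC, against 6.39, 6.35 and 6.33 in D-TF-iPSC, and 6.69, 7.01 and 7.91 in ME, and none of them was called between the iPSC groups. The other 38 had 11.54, 11.55 and 11.57 in D-ME-iPSC, against 9.29, 9.24 and 9.13 in D-TF-iPSC, and 11.67, 9.32 and 10.59 in ME. All 38 had positive folds between the iPSC groups, each of at least 1.14, and 26 were called. The stretches differed in ME too, since ME replicate 3 had the highest level of the 9 arrays in the dim stretch but lay between the iPSC groups in the bright one, where ME replicate 2 was near D-TF-iPSC. The gene level of 9.27 in ME replicate 3, above all D-ME-iPSC arrays, thus sums up a bright stretch that was lower and a dim stretch that was higher than in D-ME-iPSC. Lama3 is known to give a short and a long α3 chain from separate start sites, which share their C-terminal part. The tables used here give no position of a probe set in its gene, the bounds were set after the values were seen, and neither stretch was assigned to a form.

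**Figure D3:**
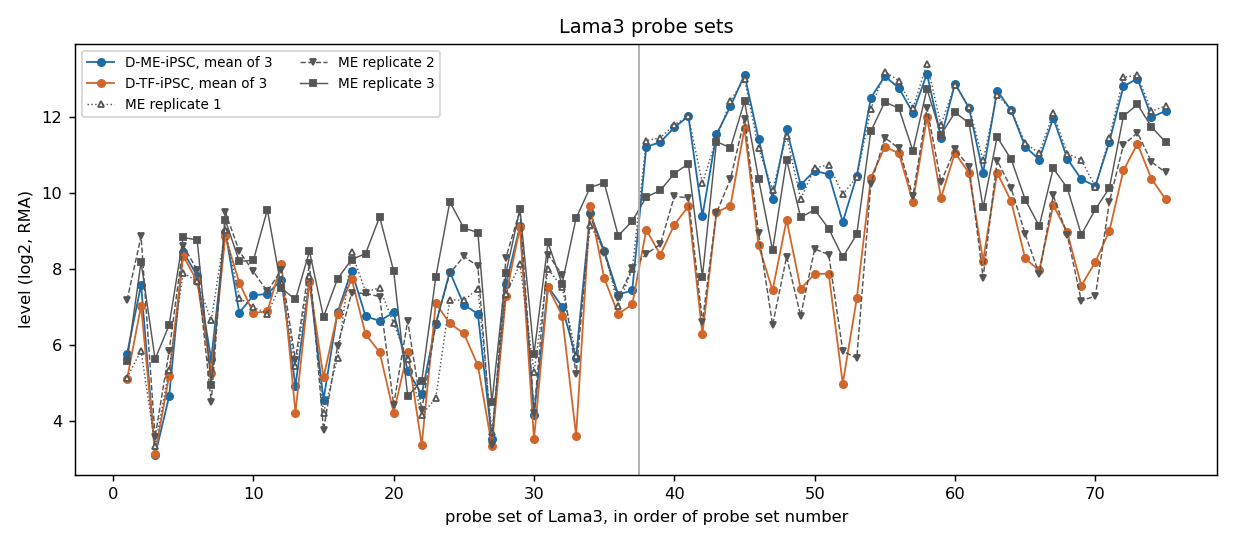
Log2 level (RMA, vertical axis) of the 75 probe sets of Lama3 in order of probe set number (horizontal axis), as the mean of 3 arrays for D-ME-iPSC and D-TF-iPSC and as single arrays for ME. Right of the grey line, after probe set 37, D-ME-iPSC and ME replicate 1 run together at the top and D-TF-iPSC and ME replicate 2 at the bottom, whereas left of it the groups lie close and ME replicate 3 is often highest.

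Dst had a flat gene mean, and a few of its probe sets had folds in opposite directions. Of its 107 probe sets, 1 was called higher and 2 lower between the iPSC groups. Among all probe sets 2.84% were called higher and 2.48% lower, so calls were no more frequent in Dst. One probe set, the 16th in order, had 9.45, 9.56 and 9.44 in D-ME-iPSC, against 7.21, 7.07 and 7.74 in D-TF-iPSC, and 9.56, 8.62 and 10.49 in ME. It was higher in the D-ME-iPSC than in the D-TF-iPSC arrays by log2 2.15 (adjusted p = 0.020) and lower in D-TF-iPSC than in ME by log2 -2.22 (adjusted p = 0.015), against the direction of the gene mean. Probe sets 36 to 38 averaged 11.09, 11.10 and 11.27 in D-ME-iPSC, against 9.35, 9.10 and 9.27 in D-TF-iPSC, and 11.24, 8.21 and 11.03 in ME. Their folds between the iPSC groups ran from 1.47 to 2.56 and none was called. On the other side, probe sets 42 to 47 averaged 10.36, 10.34 and 10.58 in D-ME-iPSC, against 11.53, 11.50 and 11.43 in D-TF-iPSC, and 10.37, 9.59 and 10.70 in ME. All 6 had negative folds between the iPSC groups, and 2 were called lower, one at log2 -1.14 (adjusted p = 0.019) and one at -1.32 (adjusted p = 0.043). The first 12 probe sets averaged 8.83 in D-ME-iPSC against 9.32 in D-TF-iPSC, and the 60 from the 48th on averaged 9.88 in D-ME-iPSC against 10.09 in D-TF-iPSC. Dst is known to give an epithelial form that binds keratin as well as neuronal and muscle forms that bind actin and microtubules, through separate start sites and splicing. Which form a probe set reports was not assigned here, the stretches were bounded after the values were seen, and the second promoter window printed above is that of another annotated start site.

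**Figure D4:**
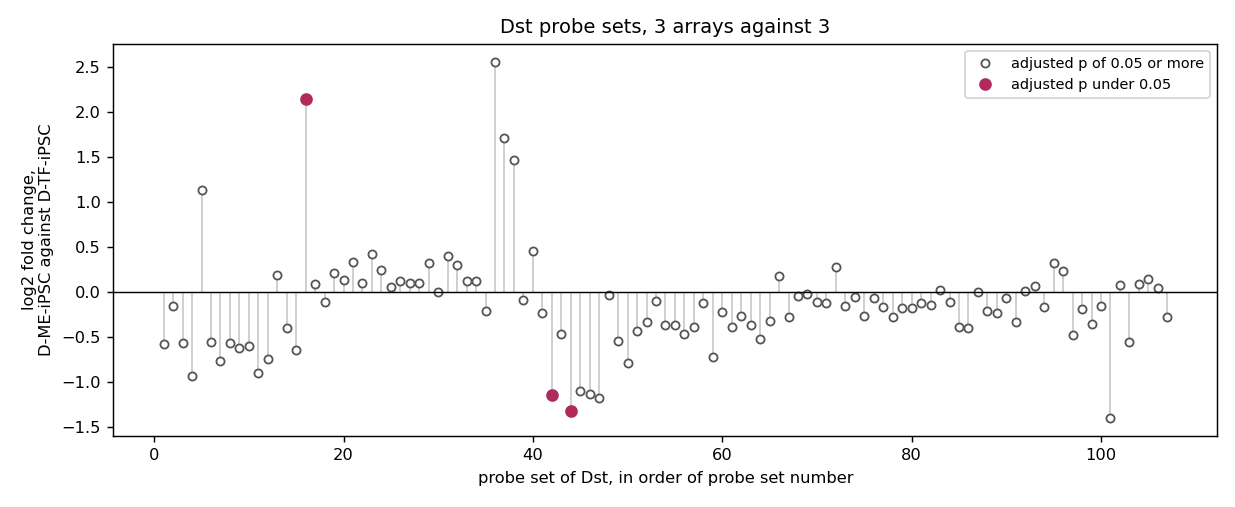
Log2 fold change between the iPSC groups (vertical axis) of the 107 probe sets of Dst in order of probe set number (horizontal axis), with filled circles for the 3 at adjusted p under 0.05 by limma. The 16th probe set stands at 2.15 and the 36th to 38th between 1.47 and 2.56, while the 42nd to 47th stand below 0 and most others lie between -1 and 0.5.

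The other laminin chains went the opposite way or did not pass the test. Of 7 measured, 3 were called lower in the D-ME-iPSC than in the D-TF-iPSC arrays and none higher, with a median log2 fold of -0.40, against 6.45% of all genes called lower. Lama2, whose α2 chain is typical of muscle and other mesenchymal basement membranes, had 7.98, 8.00 and 8.02 in D-ME-iPSC, against 10.25, 10.20 and 10.17 in D-TF-iPSC, and 8.17, 9.39 and 9.91 in ME. It was lower in the D-ME-iPSC than in the D-TF-iPSC arrays by log2 -2.20 (standard error 0.35, adjusted p = 0.0033), and its ME arrays ran from the level of D-ME-iPSC (replicate 1) to near that of D-TF-iPSC (replicate 3). Lama4 and Lamb2, chains of vessel and stromal laminins, were lower by log2 -0.91 (adjusted p = 0.0057) and -0.92 (0.0090). Between D-TF-iPSC and ME the same 2 chains were called higher, Lama4 by 0.82 and Lamb2 by 0.62, where 8.78% of all genes were called higher. Lama1, Lamb1, Lamc1 and Lamc3 had folds of -0.23, -0.26, -0.40 and -0.21 between the iPSC groups and were not called. Lamc1, the common γ1 chain, was bright in all 9 arrays, at 10.33 to 10.38 in D-ME-iPSC, 10.69 to 10.83 in D-TF-iPSC and 10.39 to 11.40 in ME. Without ME replicate 1, Lama2 (log2 -1.65), Lamb2 (-0.51), Lamc1 (-0.60) and Lamc3 (-0.43) were called lower and Lamb1 (1.40) higher in D-ME-iPSC than in ME, where 15.1% of all genes were called lower.

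**Figure D5:**
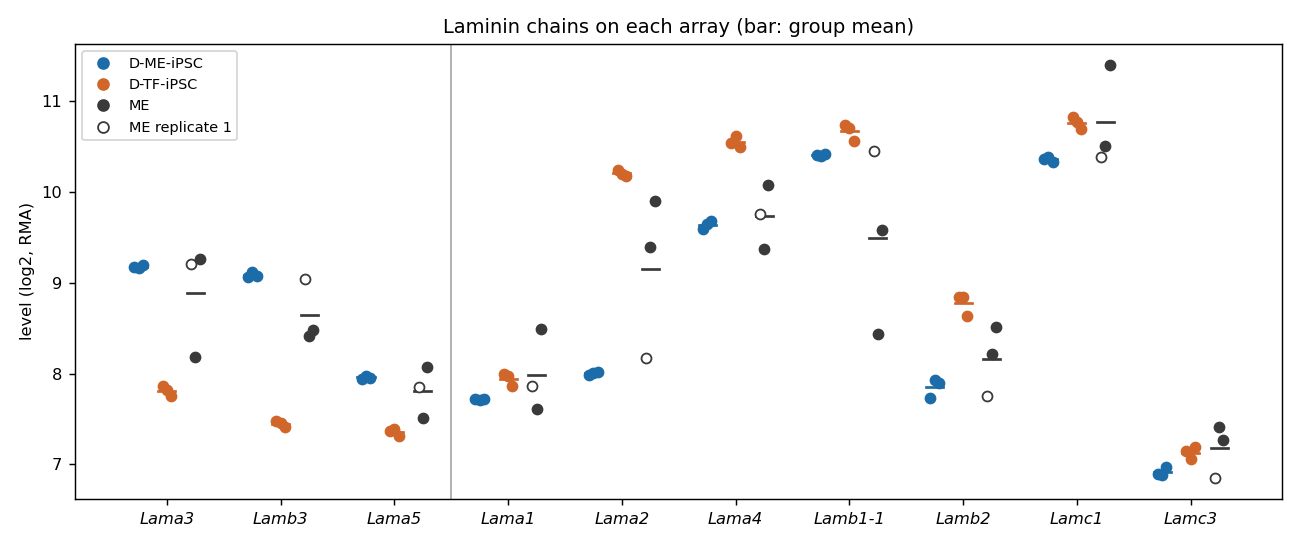
Log2 level (RMA, vertical axis) of 10 laminin chains in D-ME-iPSC, D-TF-iPSC and ME, 1 circle per array, a bar at the mean of 3 arrays and an open circle for ME replicate 1; Lamb1-1 is the array table's name for Lamb1. Left of the grey line, Lama3, Lamb3 and Lama5 are higher in the D-ME-iPSC than in the D-TF-iPSC arrays, and right of it Lama2, Lama4 and Lamb2 are lower.

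Of 9 other hemidesmosome and anchoring genes, 2 were called higher and 1 lower in the D-ME-iPSC than in the D-TF-iPSC arrays, where 6.83% of all genes were called higher and 6.45% lower. The keratins Krt5 and Krt14, which form the filaments that hemidesmosomes hold, were higher by log2 3.63 (adjusted p = 0.00078) and 2.76 (adjusted p = 6.1e-05), and Krt5 stands in the list the study drew up from these arrays. Krt5 had 12.21, 12.12 and 12.19 in D-ME-iPSC, against 8.79, 8.51 and 8.34 in D-TF-iPSC, and 12.14, 9.94 and 11.24 in ME. Frem1, of a complex that joins epidermis and dermis in the embryo, was lower by log2 -0.65 (adjusted p = 0.013). Fermt1, which encodes the integrin activator kindlin-1 of epithelia, resembled Itga3 in its ME arrays, with 10.65, 10.56 and 10.55 in D-ME-iPSC, against 7.76, 7.80 and 7.48 in D-TF-iPSC, and 10.76, 6.33 and 7.58 in ME. Its log2 fold of 2.91 between the iPSC groups had a standard error of 0.88 and an adjusted p of 0.062. Plec (plectin, log2 0.28), Cd151 (a tetraspanin partner of Itga3 and Itga6, 0.62), Col7a1 (anchoring fibrils, 0.08), Fras1 (-0.07) and Frem2 (-0.0025) were not called. Without ME replicate 1, Plec (adjusted p = 0.048), Cd151 (0.00053) and Fermt1 (2.9e-05) were called higher as well, 5 of 9 in all, where 15.5% of all genes were.

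Receptors outside the 8 genes were mixed, and their counts are to be read against the 6.83% of all genes called higher and 6.45% called lower between the iPSC groups. Of 9 other laminin receptors, 3 were called higher and 1 lower in the D-ME-iPSC than in the D-TF-iPSC arrays, led by Itga2 (log2 2.31, adjusted p = 0.022), a collagen and laminin receptor chain, and by the heparan sulphate proteoglycan Sdc4 (1.11, 0.010), then by Bcam (1.05, 0.0019), a receptor for α5 laminins, with Itga1 (-1.10, 0.0056) lower. Against ME, Sdc4 (-1.60, 0.0014) and Bcam (-0.74, 0.0095) were lower in D-TF-iPSC and Itga1 (0.99, 0.0085) was higher. Itga2 had 11.33, 11.39 and 11.42 in D-ME-iPSC, against 9.24, 9.14 and 8.85 in D-TF-iPSC, and 11.49, 8.96 and 9.22 in ME, so here too ME replicates 2 and 3 lay at the level of D-TF-iPSC. Itgb1, the partner of Itga3, falls outside the rule for naming genes and was picked after its values were seen. It had 11.81, 11.70 and 11.66 in D-ME-iPSC, against 11.83, 11.89 and 11.93 in D-TF-iPSC, and 11.87, 11.02 and 11.08 in ME, with a log2 fold of -0.16 between the iPSC groups (adjusted p = 0.75). Of 18 other integrin chains, 3 were called higher and 5 lower. Itgb6 (3.06, adjusted p = 0.0018) and Itgb8 (1.43, 6.4e-05), chains of epithelial integrins that activate latent TGF-β, had the largest positive folds. Itga11 (-2.53, 7.6e-06), a collagen receptor chain of fibroblasts, and Itgam (-1.04, 0.0011), of myeloid cells, had the largest negative ones. Named after their values were seen, the rest of those called were Itgb3 (0.83, 0.021) upwards, and Itgb5 (-0.96, 0.020), Itga4 (-0.96, 0.0053) and Itgb2 (-0.63, 0.012) downwards. Against ME, 6 of the 18 were called higher in D-TF-iPSC, led by Itga11 (2.32, 1.1e-05) and Itgb5 (1.49, 0.0020), and 2 lower, Itgb6 (-2.00, 0.013) and Itgb8 (-1.62, 3.2e-05), where 8.78% of all genes were called higher and 7.5% lower.

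Of 12 genes for laminin processing and integrin adaptors, 1 was called higher and 2 lower in the D-ME-iPSC than in the D-TF-iPSC arrays, against 6.83% higher and 6.45% lower among all genes. Pxn, the focal adhesion adaptor paxillin, was higher (log2 0.71, adjusted p = 0.0018), and Tll1, a tolloid protease, and Tln2, a talin, were lower (-1.53, 0.0038 and -0.75, 0.0054). Between D-TF-iPSC and ME, Tll1 (1.95, adjusted p = 0.00096) and Bmp1 (1.47, 0.011), a protease of the same family, led the 4 of 12 called higher in D-TF-iPSC, and Pxn alone was called lower (-0.84, 0.00065), where 8.78% of all genes were called higher and 7.5% lower.

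Marker genes of other cell types moved between the groups as well, beside 6.83% of all genes called higher and 6.45% called lower between the iPSC groups. All 6 epithelial markers were called higher in the D-ME-iPSC than in the D-TF-iPSC arrays, with folds of 1.71 to 3.05, led by Esrp1 (3.05) and Krt18 (2.95). Of 6 basal mammary and keratinocyte markers, 5 were called higher, led by Krt5 (3.63) and Krt17 (3.34), and their mean level was 11.30 to 11.37 in D-ME-iPSC, 9.08 to 9.21 in D-TF-iPSC and 10.06 to 11.30 in ME. Of 7 fibroblast markers, 5 were called lower, led by Col3a1 (-1.80) and Col1a1 (-1.71). Of 4 Schwann and neural crest markers, Erbb3 (1.84) and Sox10 (1.08) were called higher, and of 6 macrophage markers Cd14 (2.14) was called higher and Lyz2 (-3.07) and Emr1 (-1.52) lower. Of 6 muscle and 6 endoderm markers 1 each was called lower, Des (-0.55) and Gata6 (-1.19), and no endothelial, adipocyte or pluripotency marker of 6 each was called by limma (without ME replicate 1, 2 endothelial and 1 adipocyte markers were called lower, where 12.8% of all genes were). Between D-TF-iPSC and ME all 6 epithelial markers were called lower and all 7 fibroblast markers higher, where 7.5% of all genes were called lower and 8.78% higher. In D-ME-iPSC against ME no marker was called with all 9 arrays, and the median log2 fold was 0.04 for the epithelial, 0.54 for the basal, 0.40 for the fibroblast and 0.53 for the endothelial markers. When ME replicate 1 was left out, 23.6% of all genes were called higher and 15.1% lower in D-ME-iPSC than in ME. Called higher were 5 of 6 endothelial, 3 of 7 fibroblast, 3 of 6 basal and 1 of 6 epithelial markers (Cldn4). Of 6 macrophage markers, 1 was called higher and 2 lower. Also lower were 2 of 6 pluripotency, 2 of 6 adipocyte, 1 of 4 Schwann and neural crest and 1 of 6 muscle markers. Markers thus moved beside the 4 genes called in that comparison. In ME replicates 2 and 3, where Itga3 and Itgb4 were low, the mean level was 11.28 and 11.06 for the epithelial markers (11.37 in ME replicate 1), 10.06 and 10.98 for the basal ones (11.30), and 7.31 and 7.43 for the endothelial ones (8.28). Single markers differed more, as Krt5 was at 9.94 and 11.24 in ME replicates 2 and 3 (12.14 in ME replicate 1), Cldn4 at 8.57 and 8.58 (9.498), and Cd68, of macrophages, at 11.03 and 10.03 (7.84). The mean of all 6 macrophage markers was 8.34 and 7.52 (7.48). Lyz2 (9.18 and 7.35, against 8.90) and Cd14 (9.66 and 8.89, against 9.33) were lower in ME replicate 3 only. Emr1 was higher in both. Named after their values were seen, Ptprc was higher in both and Csf1r lower (6.22 and 6.27, against 6.89). Several of these markers are in the study's own list from these arrays, and their part in the levels of the 8 genes was not tested.

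Genes with the most similar course over the 9 arrays were sought among 17625 others with a current symbol, by the smallest root mean square difference of centred log2 levels. Lama3 was closest to Bmp7 (0.14), F11r (0.15) and Efna1 (0.16), against a median of 0.70 over all genes. Lamb3 was closest to Nhsl1 (0.083), Slpi (0.12) and Fst (0.13), and Itga6 to Ank3 (0.083), Pkp4 (0.083) and Mme (0.086). For Itga3, Krt7 (0.13), AU018091 (0.13) and Pstpip2 (0.15) came first, against a median of 1.05, and for Itgb4, Unc13b (0.105), Atp10b (0.11) and Prom1 (0.11). Col17a1 was nearest to Btbd11 (0.052), Rin2 (0.067) and Tcf7 (0.082), and Lama5, whose own range was narrow, to Vwa1 (0.069), Pvr (0.071) and Tnk1 (0.071). None of the 8 genes was among the 3 nearest of these 7, Dst was not searched for, and the likeness rests on 9 arrays with 3 groups.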

How the data were processed

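Total RNA was the starting material, biotin the label, and Affymetrix mouse gene arrays the platform. The authors deposited log2 values of 241576 exon-level probe sets, made with RMA (background correction, normalization and summary of probes) and Partek; their versions, settings and build were not stated. No further normalization or filter was applied. A gene level is the mean over probe sets that carry 1 symbol in the platform annotation (212138 used; 4672 with several symbols and 24766 without one were left out), and 17626 of the 20422 genes carry a current symbol. Groups follow the array labels, 3 arrays each. The series describes the arrays as biological replicates but names no separate animals or cultures, so p-values measure the spread between arrays. The spread of each gene is pooled over the 3 groups, so that of ME also enters the standard errors between the iPSC groups. Limma 3.58.1 (R 4.3.3) was fitted with 1 mean per group to 9 arrays and, to look at 1 array, without ME replicate 1; a call is an adjusted p (Benjamini-Hochberg, over all genes or all probe sets) under 0.05. The test was checked on simulated data. The number of arrays limits the precision. Raw intensities are not used here.

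The 8 genes, the gene lists and the tests were chosen with earlier results of these data known. Named beside the 8 are all other laminin and hemidesmosome genes, for the other lists up to 2 called genes with the highest and 2 with the lowest fold per comparison, the 3 nearest genes of each called gene, and the probe sets with extreme folds; exceptions are marked. Of the alternatives, normalization, dim genes, probe set summary, spread model, arrays in the fit, Student's t-test of the study's methods, thresholds, replicate block, array weights and arrays left out were varied.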

Additional observations from a re-analysis of the deposited data

How the results depend on the processing

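All 8 genes kept the sign of their fold against D-TF-iPSC, in both comparisons with it, under every alternative run. Between the iPSC groups the 7 calls were 4 at an adjusted p under 0.01 and 5 to 7 when single arrays were left out, and Itga3, Lama3 and Lamb3 were called under all 23 alternatives. Between D-TF-iPSC and ME the 3 calls became 6 with quantile normalization, 6 with array weights and 1 by the methods' t-test after Benjamini-Hochberg adjustment, and 2 to 6 when single arrays were left out (6 without ME replicate 1, 5 without ME replicate 2). Between D-ME-iPSC and ME the count of 0 became 4 with array weights and was 0 to 4 when single arrays were left out, 4 without ME replicate 1. The array weights were 0.0658, 0.142 and 8.98 for ME replicates 1, 2 and 3. Called probe sets of the 8 genes numbered 43 to 175 between the iPSC groups when single arrays were left out, 28 to 126 between D-TF-iPSC and ME, and 0 to 120 between D-ME-iPSC and ME. Small uncalled folds between D-ME-iPSC and ME changed sign. With array weights that of Dst was -0.084, that of Lama3 -0.072 and that of Lama5 -0.10, with the brightest probe set that of Lama5 was -0.043, and with the median of the probe sets that of Itga6 was 0.077. When single ME arrays were left out, Dst ran between -0.092 and 0.45 (negative without ME replicate 2), Lama3 between -0.061 and 0.48 (likewise), Lama5 between -0.0056 and 0.27 (likewise), and Itga6 between -0.15 and 0.029 (positive without ME replicate 1 and, at 0.019, without ME replicate 3). The methods' t-test called Dst lower in the D-ME-iPSC than in the D-TF-iPSC arrays (-0.14, adjusted p = 0.043). Arrays with the same replicate number did not deviate together (r of -0.18 to 0.16), and the replicate block left the counts of called genes at 7, 3 and 0 and gave 110 and 46 called probe sets in the comparisons with D-TF-iPSC. The cause of these changes was not tested.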
